A study of Mus musculus with 27 samples.

Results

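IL-4 polarized macrophages (M2) of wild-type (WT) mice were compared with unpolarized macrophages (Mφ) after both had spent 48 h in medium conditioned by malignant peripheral nerve sheath tumor cells (MPNST-CM). The members are the 6 libraries of batch 1 whose titles name M2 or M0 cells, CM and wild-type, replicates 1 to 3 of each, out of 27 libraries in the series. The study sequenced 3′ ends of polyadenylated RNA from WT and TRAP1 KO macrophages in MPNST-CM or in control medium (DMEM), and the tumor cells were a murine line made from skin-derived precursors lacking Nf1 and p53.

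Both groups came from bone marrow of female C57BL/6 mice aged 3 to 4 months, carried intact Trap1, and were grown for 4 and then 3 days in a differentiation medium that held L929-conditioned medium. M2 cells then received IL-4 at 10 ng/mL for 24 h in complete RPMI, and Mφ received none. MPNST-CM (10 mL) then replaced the medium of both groups and was itself renewed once, after 24 of its 48 h. The sources do not state the medium of the sequenced Mφ during the 24 h of IL-4 (in a migration assay of the study Mφ were held unpolarized for that time), so IL-4 and that culture step cannot be told apart, nor do they state whether IL-4 was present in MPNST-CM. Whether the 3 replicates are separate animals is not given either, and the p-values measure only the spread between these samples.

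IL-4 binds a receptor made of IL-4Rα and a partner chain, JAK kinases phosphorylate STAT6, and STAT6 carries the signal to the genes of alternative activation. In mouse macrophages these genes include the secreted lectin-like proteins Ym1 and RELMα, C-type lectins that bind sugars, and CCL17, CCL22 and CCL24. Tumor-associated macrophages often carry part of the same program, together with growth factors and proteases that act on vessels and matrix.

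Values are given as CPM, the counts of a gene as a share of its library after scaling by TMM, in the order of replicates 1, 2 and 3, and differences as the log2 fold change of M2 over Mφ. Differences between genes in CPM also reflect how many reads each transcript yields. Where a gene is named as the most abundant of a list, this is an order of counts only. A gene passed when edgeR's quasi-likelihood test gave a Benjamini-Hochberg adjusted p under 0.05 over the 13614 genes tested. In a bulk sample, fewer cells that make a transcript and less of it per cell cannot be told apart.

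The labels were first checked on marker genes. Trap1 read 16.7, 11.2 and 13.7 CPM in Mφ and 10.4, 10.5 and 10.6 CPM in M2, so all 6 libraries held the transcript of the gene that is missing from the KO mice (log2 fold change −0.40, adjusted p = 0.121). All 12 macrophage markers were tested, and they summed to 11370, 10900 and 11190 CPM in Mφ and to 11320, 11780 and 11430 CPM in M2, with the lysozyme gene Lyz2 as the most abundant. Among them 5 were higher in M2 (with Adgre1, Csf1r and Itgam) and 4 lower (Lyz2, Aif1, Mertk and Fcgr1), against 11.9% and 13% of all genes tested. For the label M2, the IL-4 response genes Retnla, Chil3 and Mgl2 were near 0 in every Mφ library and high in every M2 library, with values given further on.

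Markers of other cell types were scarce. Of 9 dendritic cell markers 5 were tested, and all 9 summed to 11.8, 12.2 and 14.1 CPM in Mφ and to 22.6, 19.4 and 16.6 CPM in M2, with Kmo the most abundant in Mφ and Ccr7 in M2. Ccr7 was higher in M2 (log2 fold change 3.05, adjusted p = 2.15e-10) and Kmo lower (log2 fold change −0.68, adjusted p = 0.0341), and the other 3 tested did not pass. Kmo did not pass with the batch 2 libraries added, in the fit of the 6 libraries alone, with DESeq2, without a filter on low counts or without replicate 2 or 3 of either group. Of 11 neutrophil markers 5 were tested, with sums over all 11 of 11.8, 13.95 and 11.4 CPM against 10.9, 14.8 and 14.5 CPM and S100a8 as the most abundant. Ly6g, with 5, 7 and 7 counts in Mφ and 0, 1 and 2 in M2, passed as lower, and the other 4 tested did not pass. Ly6g did not pass with the batch 2 libraries added, with DESeq2, without a filter on low counts, without the libraries numbered 1 or without any one of 4 of the 6 libraries. The sums of 6 eosinophil markers were 14.4, 15.3 and 16.3 CPM in Mφ and 46.6, 52.5 and 60.4 CPM in M2. Nearly all of this was Siglecf (log2 fold change 3.11, adjusted p = 2.32e-13) and Ccr3 (log2 fold change 0.84, adjusted p = 8.31e-05, not passing with the batch 2 libraries added). Of the granule protein genes, Epx and Prg2 held 1 count each, both in replicate 3 of M2, and Prg3 and the receptor gene Il5ra were at 0 in all 6 libraries. The part of any such cell in the results was not tested.

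The other marker sums were lower still. Mast cell and basophil markers (4 of 8 tested, Gata2 the most abundant) stood at 2.43, 3.00 and 3.45 CPM in Mφ and 4.02, 6.83 and 3.15 CPM in M2, with Gata2 and Mcpt8 higher, Kit lower and Mcpt4 at 0. Lymphocyte markers (1 of 10 tested, Klrb1c) summed to no more than 1.13 CPM in any library, and Cd3g, Cd79a, Nkg7, Trbc2 and Ighm were at 0. Erythroid and megakaryocyte markers (0 of 9 tested, Itga2b the most abundant) reached at most 1.34 CPM, with Hba-a1, Hba-a2 and Gp1bb at 0. Fibroblast and tumor cell markers (3 of 12 tested) lay between 2.78 and 5.03 CPM, none passed, and Lum and Ngfr were at 0.

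Replicate 1 of each group stood apart from replicates 2 and 3. Taking genes with 20 or more summed counts in a pair, the chi-square per degree of freedom was 26.5 and 23.2 between replicate 1 of Mφ and the other 2, and 2.75 between those 2. In M2 the same values were 37.4 and 33.6 against 2.57. Pparg, which encodes a lipid-sensing nuclear receptor, shows it in Mφ at 4.40, 18.3 and 17.8 CPM. Results that rest on the libraries numbered 1 are given with and without them, an alternative chosen after seeing the data.

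Between 7783061 and 8452051 counts were assigned to genes in each of the 6 libraries. The share of mitochondrially encoded mRNA was 2.90%, 2.97% and 2.91% in Mφ and 3.54%, 4.54% and 4.35% in M2, and that of ribosomal protein mRNA 4.70%, 4.66% and 4.75% against 3.43%, 3.92% and 3.92%. The 10 most abundant genes took 10.0%, 10.0% and 10.1% of the counts in Mφ and 13.7%, 12.2% and 11.9% in M2. These shares moved with the groups, and their part in the results was not tested.

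Of the 13614 genes tested, 3392 passed (24.9%), with 1617 higher in M2 (11.9%) and 1775 lower (13%), and the median log2 fold change of all genes tested was −0.05. In 924 of them the log2 fold change was 1 or more in size, 589 higher and 335 lower. The largest differences lay on the higher side, where 124 genes reached 3 or more, against 10 genes on the lower side. The 6 libraries fell apart into 2 groups without overlap in 4777 genes (35.1%), while 224 of the genes that passed overlapped between the groups.

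The total differed between fits. The fit of the 24 batch 1 libraries was followed by a fit to which the 3 libraries labelled batch 2 were added, none of them from the 2 groups. That fit had no term for batch, so the added libraries counted as replicates of their own groups. Neither group compared gained a library, so a call lost in it is not a second measurement of the gene. With the batch 2 libraries added 1204 genes passed, 1203 of them among the 3392 and in the same direction. A fit of the 6 libraries alone gave 1941 of 12371 genes tested, and 3328 passed without the libraries numbered 1, of which 2527 were shared. The larger side changed as well: against 1617 higher and 1775 lower, the split was 736 and 468 with the batch 2 libraries added, 1103 and 838 in the 6 libraries alone, 1887 and 1441 without the libraries numbered 1, and 1947 and 1220 without a filter on low counts. Higher genes were also the larger side with median-of-ratios scaling and DESeq2. For each gene list that follows, the count with the batch 2 libraries added, or from the libraries compared alone, is given where it differs by over 1.5 times. Member counts stand beside 11.9% higher and 13% lower over all genes throughout.

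**Figure D1:**
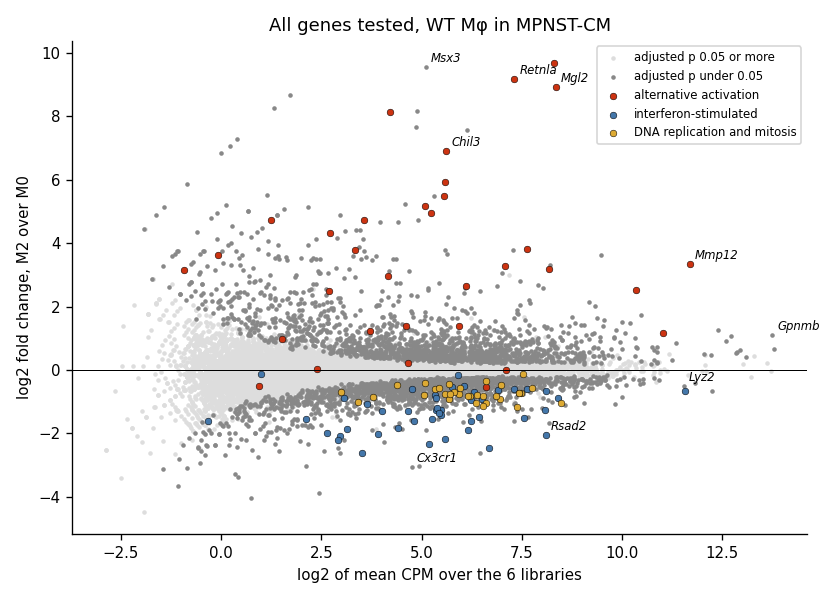
Each point is 1 of the 13614 genes tested, with the log2 of its mean CPM over the 6 libraries on the horizontal axis and the log2 fold change of M2 over Mφ on the vertical axis. Dark points passed at an adjusted p under 0.05, and members of 3 gene lists are colored: alternative activation genes such as Mgl2, at 8.92, lie near the top, while interferon-stimulated and cell cycle genes lie below 0 (M0 on the axes is Mφ).

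The list of alternative activation genes held 36 names, of which 33 were tested, and 28 were higher in M2 and 1 lower, a share of 84.8% against 11.9% over all genes. Its median log2 fold change was 3.28, or 3.35 with the 3 genes near 0 counts at their ratio, beside −0.05 over all genes tested. Chil4 and Cd209a were not tested, and the name Ear11 is not in the counts. Chil4, whose sequence is close to that of Chil3, had 0 counts in each Mφ library and 9, 10 and 10 counts in M2. The summed level of the list rose from 2488, 2907 and 2837 CPM to 14540, 14950 and 15130 CPM, with Mrc1 the most abundant member in Mφ and Mmp12 in M2.

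Slc7a2, a transporter that brings arginine into the cell, read 2.20, 2.65 and 0.647 CPM in Mφ and 57.1, 75.4 and 65.4 CPM in M2. The 3 M2 libraries lay far above the 3 Mφ libraries (log2 fold change 5.17, adjusted p = 1.67e-15). The wider list of arginine and polyamine genes did not move together: of 18 tested, 3 were higher (16.7%) and 4 lower (22.2%; 2 in the fit of the 6 libraries alone and 0 with the batch 2 libraries added), with a median of −0.01. The lower count was 2 without replicate 3 of Mφ or without replicate 2 of M2. Glul, for glutamine synthetase, was higher (0.33), and the polyamine oxidase genes Paox (−1.19) and Smox (−0.61) were lower, and these 3 did not pass with the batch 2 libraries added (adjusted p = 0.0909, 0.0887 and 0.591).

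The secreted proteins showed the same separation. Retnla, which encodes RELMα, read 0.695, 0.807 and 0.108 CPM in Mφ and 290.5, 330.4 and 332 CPM in M2, and Chil3, which encodes Ym1, read 0.810, 0.807 and 0.755 CPM in Mφ and 91.8, 100.1 and 100.1 CPM in M2. Both were under 1 CPM in all Mφ libraries and tightly grouped in M2 (9.19 and 6.92 in log2, adjusted p = 5.46e-18 and 3.82e-16). Rnase2a, a ribonuclease gene of the eosinophil-associated family, had 1 count in each Mφ library and 33.9 to 38.2 CPM in M2, a ratio of 324 (counting interval 111 to 1576). Its paralog Ear2 had 2 counts over the Mφ group and 19 over M2, a ratio of 10.5 (counting interval 2.53 to 92.8), which did not pass with the batch 2 libraries added (adjusted p = 0.551). These intervals cover counting error only, and reads may be shared among close paralogs.

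The C-type lectins and other surface proteins rose by unequal amounts. Mgl2, which encodes a galactose-binding lectin, read 1.16, 1.27 and 1.51 CPM in Mφ and 631, 683 and 627 CPM in M2. It changed by far more than its neighbor gene Clec10a, which read 22.9, 25.7 and 27.1 CPM in Mφ and 217, 265 and 253 CPM in M2 (8.92 against 3.28 in log2, adjusted p = 5.17e-21 and 3.15e-16). Mrc1, the mannose receptor, was already abundant in every Mφ library, at 1169, 1346 and 1328 CPM, and stood at 2970, 2759 and 2801 CPM in M2. No M2 library came near the Mφ range (log2 fold change 1.15, adjusted p = 2e-12). Clec7a, the β-glucan receptor dectin-1, read 58.9, 58.4 and 53.5 CPM in Mφ and 594, 484 and 489.5 CPM in M2, with all M2 libraries far above Mφ (log2 fold change 3.20, adjusted p = 5.46e-20).

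The integrin chain CD11c, from Itgax, read 27.8, 26.4 and 24.5 CPM in Mφ and 353, 386 and 374 CPM in M2, one of the clearest separations in the data (log2 fold change 3.82, adjusted p = 5.17e-21). Cd36, a receptor for oxidized lipids, read 308, 422 and 426 CPM in Mφ and 2233, 2122 and 2275 CPM in M2, again without overlap (log2 fold change 2.52, adjusted p = 1.01e-15). The checkpoint ligand gene Pdcd1lg2 was scarce, at 0.116, 0.346 and 0 CPM in Mφ and 4.27, 4.51 and 4.40 CPM in M2 (log2 fold change 4.73, adjusted p = 2.62e-06). Not every listed surface marker followed: Cd163, the hemoglobin scavenger receptor, read 5.09, 5.19 and 5.07 CPM in Mφ and 4.27, 5.00 and 6.42 CPM in M2 and overlapped between the groups (log2 fold change 0.03, adjusted p = 0.943). The Fc receptor-like gene Fcrls was the only member that fell, from 123, 110.3 and 112 to 80.2, 79.2 and 78.1 CPM (log2 fold change −0.54, adjusted p = 4.68e-06), and it did not pass with the batch 2 libraries added (adjusted p = 0.388).

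Other members rose as well. Cdh1, for E-cadherin, rose by 3.77 in log2 (adjusted p = 6.24e-12), Tmem26, a membrane protein gene, by 5.48 (adjusted p = 8.33e-16), and Matk, a kinase gene, by 2.97 (adjusted p = 2.48e-12). Flt1, which encodes VEGF receptor 1, read 1.27, 1.38 and 1.94 CPM in Mφ and 105, 92.7 and 86.5 CPM in M2. It went from near the limit of detection to a level well above it (log2 fold change 5.93, adjusted p = 9.9e-20). The elastase gene Mmp12 read 505, 655 and 608 CPM in Mφ and 5521, 6248 and 6257 CPM in M2, and no library of either group came near the other group (log2 fold change 3.35, adjusted p = 5.77e-18). Tgm2, Alox15 and Kctd12b did not pass, at log2 fold changes of −0.01, −0.52 and 0.21. Without the libraries numbered 1 the value of Tgm2 was 0.24 (adjusted p = 0.0428).

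**Figure D2:**
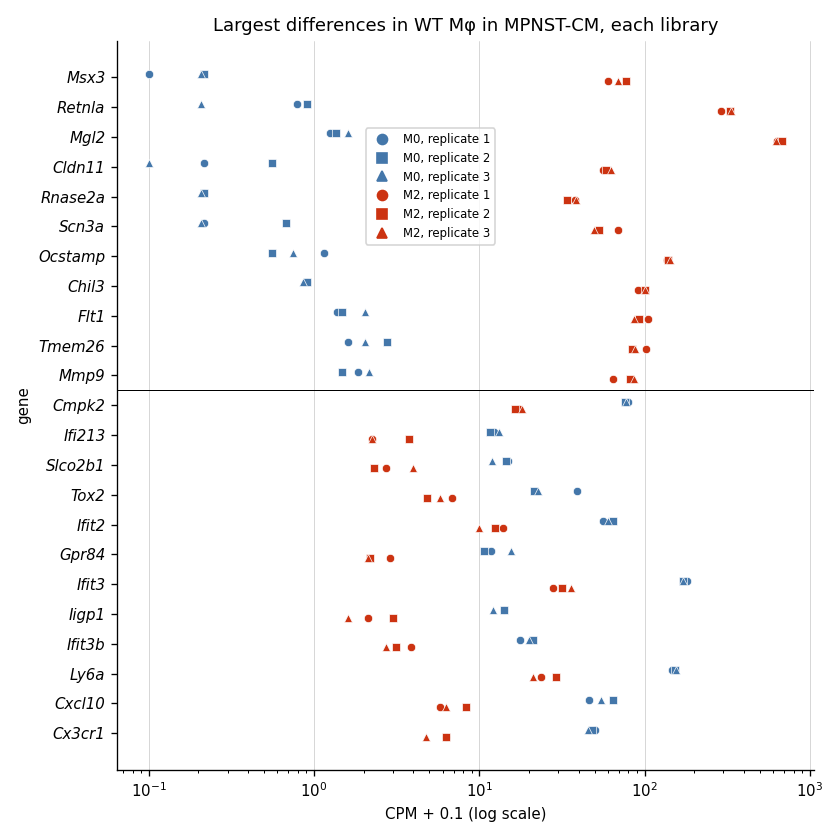
The CPM of 11 of the 12 genes with the largest rises and of the 12 with the largest falls are drawn on a log axis, 1 row per gene, with each library as a point (blue Mφ, red M2, shape by replicate, 0.1 added so that 0 can be drawn). The blue and red points are apart in every gene, and farther apart in the upper 11.

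Start regions of the listed genes, whether or not they rose, were searched for TTC and GAA with 4 free bases between them, the spacing that STAT6 is known to favor. The windows run from 250 bases before to 50 after each gene's start and are from RefSeq (GRCm38.p6). For the counts the labels name mm39 and the paper mm10. Of the 36 alternative activation names 26 had a window, and Clec10a, Ccl24, Myc, Tgm2, Cdh1, Alox15, Slc7a2, Ear11 and Kctd12b were among those that did not. The letters, which read the same on both strands, were found in 7 of the 26 (26.9%), against 6.95% of all 32851 windows and 6.76% of the tested genes with a window. In the windows of Retnla (chr16:48842359-48842658, + strand), Clec7a (chr6:129472730-129473029, − strand), Itgax (chr7:128129300-128129599, + strand) and Tmem26 (chr10:68723496-68723795, + strand) the match is in capitals, and Tmem26 holds 2. A match describes the sequence and is not evidence of binding.
Retnla: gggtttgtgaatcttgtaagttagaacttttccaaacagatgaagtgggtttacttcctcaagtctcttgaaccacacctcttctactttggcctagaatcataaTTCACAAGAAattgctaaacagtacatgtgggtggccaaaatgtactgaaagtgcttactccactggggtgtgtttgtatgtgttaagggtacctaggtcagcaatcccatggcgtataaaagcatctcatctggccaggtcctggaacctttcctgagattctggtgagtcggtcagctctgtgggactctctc
Clec7a: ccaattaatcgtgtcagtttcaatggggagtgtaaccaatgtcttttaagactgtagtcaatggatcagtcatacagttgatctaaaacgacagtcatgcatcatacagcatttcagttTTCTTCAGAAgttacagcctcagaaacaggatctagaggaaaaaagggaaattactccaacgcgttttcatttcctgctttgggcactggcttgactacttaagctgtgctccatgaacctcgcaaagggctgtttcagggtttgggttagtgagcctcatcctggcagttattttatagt
Itgax: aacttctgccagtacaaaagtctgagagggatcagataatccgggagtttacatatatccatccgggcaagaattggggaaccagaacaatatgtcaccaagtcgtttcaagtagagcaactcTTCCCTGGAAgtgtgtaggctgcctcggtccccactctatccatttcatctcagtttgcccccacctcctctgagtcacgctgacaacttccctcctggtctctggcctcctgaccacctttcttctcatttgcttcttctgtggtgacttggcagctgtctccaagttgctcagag
Tmem26: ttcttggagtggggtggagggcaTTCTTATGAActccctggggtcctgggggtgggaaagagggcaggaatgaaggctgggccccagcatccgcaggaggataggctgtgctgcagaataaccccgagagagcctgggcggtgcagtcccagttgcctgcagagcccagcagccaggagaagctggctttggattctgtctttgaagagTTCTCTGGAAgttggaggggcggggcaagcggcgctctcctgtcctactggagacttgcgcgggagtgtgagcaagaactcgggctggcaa

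Signaling downstream of the receptor moved in both directions: of 14 genes tested, 5 were higher and 4 lower in M2 (2 in the fit of the 6 libraries alone and 2 with the batch 2 libraries added), with a median of 0.03. The feedback inhibitors of JAK and STAT signaling were the ones that rose most. Cish read 1.39, 1.27 and 1.51 CPM in Mφ and 10.6, 14.2 and 14.3 CPM in M2, and Socs1 read 3.71, 4.15 and 6.79 CPM in Mφ and 22.5, 28.7 and 31.2 CPM in M2. Neither overlapped (3.21 and 2.48 in log2, adjusted p = 2.35e-09 and 3.41e-08), and Irs2, an adaptor that the IL-4 receptor engages, rose by 0.73 (adjusted p = 0.00198).

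The receptor chain and its transcription factor were lower. Il4ra, for IL-4Rα, read 223, 164 and 162 CPM in Mφ and 88.0, 114 and 110.5 CPM in M2, and all M2 libraries were under all Mφ libraries (log2 fold change −0.81, adjusted p = 2.62e-06), although it did not pass with the batch 2 libraries added (adjusted p = 0.26). Stat6 read 63.3, 39.1 and 56.3 CPM in Mφ and 32.9, 36.2 and 35.5 CPM in M2, with replicate 2 of Mφ close to the M2 libraries (log2 fold change −0.60, adjusted p = 0.00183). It was −0.35 without the libraries numbered 1 (adjusted p = 0.0551) and did not pass in the fit of the 6 libraries alone (adjusted p = 0.0506). The phosphatase gene Ptpn6 fell by 0.86 in log2 (adjusted p = 0.000513). Jak1, the most abundant member, read 315, 322 and 293 CPM in Mφ and 353, 339.5 and 332 CPM in M2 and did not pass (log2 fold change 0.14, adjusted p = 0.162), but did without the libraries numbered 1 (adjusted p = 0.045).

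Among 35 transcription factors of lineage and polarization that were tested, 11 were higher (5 with the batch 2 libraries added) and 10 lower (5 in the fit of the 6 libraries alone and 2 with the batch 2 libraries added), with a median of 0.22. Egr2, a factor of the IL-4 response, read 17.6, 21.4 and 18.4 CPM in Mφ and 106, 124 and 129 CPM in M2. Bhlhe40, a repressor that takes part in macrophage proliferation, read 13.6, 22.2 and 21.5 CPM in Mφ and 110.2, 116 and 119 CPM in M2. Both rose in every M2 library (2.64 and 2.59 in log2, adjusted p = 1.21e-14 and 8.6e-13). Irf4, needed for much of the M2 program, read 2.08, 1.27 and 2.26 CPM in Mφ and 7.92, 12.6 and 11.7 CPM in M2, without overlap (log2 fold change 2.50, adjusted p = 5.08e-09). Klf4 rose by 1.40 (adjusted p = 6.35e-10), with replicate 1 of M2 the highest.

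The calls of 3 factors depended on single libraries. Pparg, at 4.40, 18.3 and 17.8 CPM in Mφ, stood at 29.3, 34.4 and 43.03 CPM in M2, so that replicate 1 of Mφ was far under the other 2 (log2 fold change 1.39, adjusted p = 0.0263). Without the libraries numbered 1 its log2 fold change was 1.17 (adjusted p = 0.125), and it also missed the threshold without replicate 1 of Mφ or without replicate 2 or 3 of M2. Myc showed the same order at 2.32, 9.45 and 11.6 CPM in Mφ and 14.1, 19.6 and 21.01 CPM in M2 (log2 fold change 1.22, adjusted p = 0.0327) and missed the threshold without any 1 of the same 3 libraries and without a filter on low counts (adjusted p = 0.0675). Batf3 was low in both groups at 1.505, 2.19 and 1.83 CPM in Mφ and 2.26, 4.27 and 4.40 CPM in M2 (log2 fold change 0.98, adjusted p = 0.0185) and was lost without any 1 of the same 3 libraries. Without the libraries numbered 1 both kept their call, Myc at 1.01 (adjusted p = 0.0367) and Batf3 at 1.17 (adjusted p = 0.00659). With the batch 2 libraries added none of the 3 passed, nor did they in the fit of the 6 libraries alone.

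Among the factors that fell, Irf8, a factor of monocyte development, read 163, 137 and 142 CPM in Mφ and 109, 82.9 and 92.1 CPM in M2, with all M2 libraries under all Mφ libraries (log2 fold change −0.64, adjusted p = 3.27e-05). The differentiation inhibitor Id3 fell by 0.91 (adjusted p = 0.000142). Maf, the most abundant factor of the list, read 843, 1032 and 1010 CPM in Mφ and 690.4, 641 and 647 CPM in M2 (log2 fold change −0.54, adjusted p = 2.84e-06). With the batch 2 libraries added, Id3 and Maf did not pass (adjusted p = 0.48 and 0.436).

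CC chemokines and their receptors rose nearly as one: of 18 tested, 16 were higher (9 with the batch 2 libraries added) and 1 lower, with a median of 1.26. Ccl8, a ligand of several CC receptors, read 3.01, 1.73 and 2.26 CPM in Mφ and 66.6, 76.4 and 76.6 CPM in M2. Ccl22 and Ccl24, which attract T helper 2 cells and eosinophils, read 0.579, 1.498 and 0.431 CPM in Mφ and 22.9, 21.96 and 22.8 CPM in M2, and 1.04, 0.346 and 0.431 CPM in Mφ and 11.4, 12.4 and 12.96 CPM in M2. All 3 were scarce in Mφ and plain in M2 (4.96, 4.74 and 4.31 in log2, adjusted p = 1.81e-18, 2.3e-10 and 2.42e-11). Ccl17 stayed near the limit of detection, with 3 counts over Mφ and 38 over M2, a ratio of 13.97 (counting interval 4.43 to 70.8).

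Ccl9 was the most abundant chemokine of that list at 1785, 1873 and 1906 CPM in Mφ and 3116, 3500 and 3366 CPM in M2, and no M2 library was within the Mφ range (log2 fold change 0.84, adjusted p = 2.25e-09). Ccr2, the receptor for CCL2, was the only lower member at 102, 126 and 121 CPM in Mφ and 115, 70.9 and 88.7 CPM in M2, and its groups overlapped (log2 fold change −0.35, adjusted p = 0.0361). It missed the threshold without replicate 2 or 3 of Mφ, without replicate 2 or 3 of M2, in the fit of the 6 libraries alone and with the batch 2 libraries added.

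CXC and CX3C chemokines and receptors split: of 14 tested, 4 were higher (1 with the batch 2 libraries added) and 4 lower, with a median of 0.11. Cxcl3, a neutrophil attractant, read 0.232, 3.69 and 2.69 CPM in Mφ and 23.3, 25.6 and 31.4 CPM in M2, with only 2 counts in replicate 1 of Mφ (log2 fold change 3.59, adjusted p = 1.18e-06). Ppbp, a platelet-type CXC chemokine, read 75.0, 76.5 and 83.5 CPM in Mφ and 314, 351 and 349 CPM in M2 (log2 fold change 2.11, adjusted p = 1.02e-08), but not past the threshold with the batch 2 libraries added (adjusted p = 0.359). On the other side, Cx3cr1, the fractalkine receptor of monocytes and resident macrophages, fell from 50.4, 48.2 and 45.5 to 6.16, 6.22 and 4.66 CPM. It was the largest fall of all genes with a mean of 10 CPM in either group (log2 fold change −3.08, adjusted p = 4.09e-15). Cxcl10, a T cell attractant induced by interferon, fell from 45.9, 64.1 and 54.6 to 5.66, 8.17 and 6.16 CPM (log2 fold change −3.04, adjusted p = 1.17e-13), and Cxcl16 from 82.8, 72.2 and 78.1 to 38.3, 44.4 and 45.4 CPM (log2 fold change −0.86, adjusted p = 5e-08). Pf4, the most abundant member, read 4183, 4221 and 3924 CPM in Mφ and 3962, 4876 and 4834 CPM in M2 (log2 fold change 0.15, adjusted p = 0.351) and passed without the libraries numbered 1 (0.32, adjusted p = 0.015) and without a filter on low counts.

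Angiogenic factors were mostly higher: of 26 tested, 17 rose (11 with the batch 2 libraries added) and 2 fell (0 with the batch 2 libraries added), with a median of 1.47. Vegfa, the main growth factor of vessels, read 21.8, 30.2 and 27.4 CPM in Mφ and 78.9, 77.0 and 89.7 CPM in M2. All M2 libraries stood well over the highest Mφ library (log2 fold change 1.63, adjusted p = 1.32e-11), and the gene did not pass with the batch 2 libraries added (adjusted p = 0.18). Hbegf, a ligand of the EGF receptor, read 2.43, 2.42 and 1.83 CPM in Mφ and 28.0, 21.1 and 24.4 CPM in M2, and F10, the gene of coagulation factor X, read 12.5, 11.99 and 9.06 CPM in Mφ and 79.3, 71.1 and 74.8 CPM in M2. Both were without overlap (3.45 and 2.75 in log2, adjusted p = 2.81e-15 and 7.56e-15).

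The 2 that fell were Kdr, which encodes VEGF receptor 2, from 56.4, 51.6 and 50.7 to 28.4, 23.9 and 19.2 CPM, and Vegfb, from 64.6, 50.9 and 56.8 to 39.7, 43.8 and 38.2 CPM. Their log2 fold changes were −1.15 (adjusted p = 9.09e-08) and −0.50 (adjusted p = 0.000476), and neither passed with the batch 2 libraries added. Spp1, for osteopontin, was the most abundant at 2316, 3998 and 3960 CPM in Mφ and 2791, 3111 and 3183 CPM in M2 and overlapped (log2 fold change −0.18, adjusted p = 0.506). Replicate 1 of Mφ was the lowest of all 6, and without the libraries numbered 1 Spp1 passed at −0.27 (adjusted p = 0.0191), as it did without that library alone (−0.39, adjusted p = 0.0401).

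Of 18 matrix proteases and inhibitors tested, 13 were higher and 2 lower, with a median of 1.12. Mmp9, a gelatinase gene, read 1.74, 1.38 and 2.05 CPM in Mφ and 64.7, 82.0 and 85.9 CPM in M2, and Mmp19 read 5.79, 5.76 and 4.53 CPM in Mφ and 32.6, 36.5 and 37.9 CPM in M2. Each was low in all Mφ libraries and far higher in all M2 libraries (5.47 and 2.73 in log2, adjusted p = 2.24e-19 and 5.07e-11). Mmp8, the neutrophil-type collagenase gene, fell from 276, 314 and 309 to 120.4, 134 and 129.6 CPM (log2 fold change −1.23, adjusted p = 5.09e-10). Mmp27 was the other lower member (−0.45, adjusted p = 0.0182), and it missed the threshold without replicate 1 of M2, without replicate 2 or 3 of Mφ, without a filter on low counts, in the fit of the 6 libraries alone and with the batch 2 libraries added, and passed without the libraries numbered 1 (adjusted p = 0.0364). Ctsb, the most abundant, read 6846, 7904 and 7652 CPM in Mφ and 9347, 10020 and 10170 CPM in M2 (log2 fold change 0.40, adjusted p = 0.00149), and not past the threshold with the batch 2 libraries added (adjusted p = 0.237).

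Genes of osteoclasts and of cell fusion were among the largest rises. Of 11 tested, 9 were higher and 1 lower, with a median of 3.31. Ocstamp and Dcstamp encode membrane proteins needed for macrophages to fuse, and they read 1.04, 0.461 and 0.647 CPM in Mφ and 136, 139 and 143 CPM in M2, and 18.8, 21.3 and 22.97 CPM in Mφ and 258, 312 and 303 CPM in M2. The groups stood wide apart in both (7.58 and 3.79 in log2, adjusted p = 3.89e-16 and 3.3e-20). Atp6v0d2, a proton pump subunit, read 56.4, 53.1 and 52.6 CPM in Mφ and 532, 537 and 541 CPM in M2, nearly level within each group (log2 fold change 3.31, adjusted p = 9.27e-21). Cd9, a tetraspanin gene and the most abundant member, read 238, 426 and 398 CPM in Mφ and 648, 799 and 813 CPM in M2, with replicate 1 the lowest in both groups (log2 fold change 1.09, adjusted p = 0.000215), and did not pass with the batch 2 libraries added. Nfatc1, the osteoclast transcription factor, was the lower member (−0.33, adjusted p = 0.0481), and besides the fit described here it passed only without replicate 2 of Mφ and in the fit blocked by replicate number.

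Of 28 lysosome and V-ATPase genes tested, 19 were higher (12 in the fit of the 6 libraries alone and 10 with the batch 2 libraries added) and 0 lower, with a median of 0.37, so the rises were many and small. Ctsl, for cathepsin L, read 2353, 3718 and 3421 CPM in Mφ and 6738, 7919 and 8074 CPM in M2, and Ctsz, for cathepsin Z, read 379.8, 284 and 324 CPM in Mφ and 518, 617 and 578 CPM in M2. Replicate 1 was the lowest of its group in Ctsl, and no M2 library overlapped Mφ in either (1.26 and 0.79 in log2, adjusted p = 2.11e-07 and 9.89e-07).

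Presentation on MHC class II rose as a group, with 10 of 12 tested genes higher and 0 lower, at a median of 1.18. Cd74, the invariant chain, read 99.8, 108 and 109 CPM in Mφ and 1166, 1343 and 1433 CPM in M2. The α and β chain genes H2-Aa and H2-Ab1 read 73.9, 59.5 and 62.1 CPM in Mφ and 373, 438 and 427 CPM in M2, and 39.6, 43.8 and 46.9 CPM in Mφ and 291, 312 and 314 CPM in M2. All M2 libraries lay at several times the highest Mφ library (3.63, 2.66 and 2.81 in log2, adjusted p = 1.27e-18, 1.73e-18 and 6.15e-19). Ctss, the protease that trims the invariant chain and the most abundant of the list, read 4504, 4211 and 4023 CPM in Mφ and 8114, 8052 and 7983 CPM in M2 (log2 fold change 0.92, adjusted p = 7.17e-12). A lower member, 1 gene, appeared without replicate 3 of M2 and in the fit blocked by replicate number.

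Classical inflammatory genes went both ways, with 6 of 24 higher (3 with the batch 2 libraries added) and 11 lower (4 with the batch 2 libraries added), at a median of −0.77. Tnf read 57.3, 45.1 and 52.4 CPM in Mφ and 23.5, 24.6 and 19.4 CPM in M2, and Acod1, which makes itaconate, read 30.9, 32.6 and 35.6 CPM in Mφ and 10.1, 9.03 and 11.7 CPM in M2. Both were lower in all M2 libraries (−1.20 and −1.69 in log2, adjusted p = 9.25e-08 and 1.1e-08). Fcgr1, the high-affinity IgG receptor CD64, fell from 231, 240.0 and 240.3 to 72.2, 81.7 and 79.1 CPM (log2 fold change −1.61, adjusted p = 3.26e-14), and did not pass with the batch 2 libraries added (adjusted p = 0.207). Nos2, which encodes the inducible nitric oxide synthase, had 9 counts over the Mφ group and 0 over M2, at least 2.72-fold lower when set against 3 counts, and it did not pass (adjusted p = 0.065). It passed with DESeq2, without a filter on low counts and without replicate 1 of Mφ.

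Other inflammatory genes rose in the same libraries. Ptgs2, for cyclooxygenase 2, read 1.97, 2.77 and 3.02 CPM in Mφ and 11.1, 11.5 and 14.7 CPM in M2, and Il1b, for interleukin 1β, read 14.7, 12.8 and 11.3 CPM in Mφ and 25.4, 23.3 and 30.8 CPM in M2. Neither overlapped (2.25 and 1.03 in log2, adjusted p = 1.39e-06 and 1.08e-05), and Il1b did not pass with the batch 2 libraries added (adjusted p = 0.493). Cd80, a costimulatory molecule, read 4.17, 13.7 and 9.60 CPM in Mφ and 22.2, 21.96 and 26.9 CPM in M2 (log2 fold change 1.37, adjusted p = 0.000483), also not past the threshold there (adjusted p = 0.0747). Tlr4, the endotoxin receptor and most abundant of the list, read 248, 283 and 264 CPM in Mφ and 394, 373 and 389 CPM in M2 (log2 fold change 0.54, adjusted p = 3.35e-06).

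Interferon-stimulated genes fell as a group: of 45 tested, 43 were lower and 0 higher, a share of 95.6% against 13% over all genes, with a median of −1.28. Bst2 and Ifi205 were the 2 that did not pass. The summed level was 8955, 7764 and 7796 CPM in Mφ and 4086, 4553 and 4415 CPM in M2, with Ifitm3 the most abundant. With the batch 2 libraries added 7 of the 43 passed, while 40 passed in the fit of the 6 libraries alone and 42 without the libraries numbered 1.

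Ifit3, Ifit3b and Ifit2 encode proteins that bind viral RNA or the translation machinery, and Ifit3 read 179.7, 172 and 171 CPM in Mφ and 27.9, 31.7 and 35.7 CPM in M2. Ifit3b, a close copy, read 17.5, 21.1 and 19.9 CPM in Mφ and 3.77, 3.05 and 2.64 CPM in M2, and Ifit2 read 55.9, 64.4 and 60.4 CPM in Mφ and 13.8, 12.3 and 9.81 CPM in M2. All M2 libraries were far under the lowest Mφ library (−2.45, −2.62 and −2.33 in log2, adjusted p = 7.35e-16, 9.84e-11 and 2.44e-14). Rsad2, for the antiviral enzyme viperin, read 471, 439.9 and 420.3 CPM in Mφ and 112, 107 and 103 CPM in M2, and its neighbor Cmpk2, a nucleotide kinase, read 79.9, 75.7 and 77.6 CPM in Mφ and 17.2, 16.3 and 18.1 CPM in M2. Their log2 fold changes were −2.05 and −2.17 (adjusted p = 3.8e-16 and 1.35e-14), and Rsad2 just missed the threshold with the batch 2 libraries added (adjusted p = 0.0505).

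The DNA sensor family gene Ifi213 read 12.2, 11.5 and 13.1 CPM in Mφ and 2.14, 3.66 and 2.14 CPM in M2 (log2 fold change −2.20, adjusted p = 3.16e-11). Outside the list, Iigp1, an interferon-induced GTPase, read 14.01, 13.9 and 11.97 CPM in Mφ and 2.01, 2.93 and 1.51 CPM in M2 (log2 fold change −2.62, adjusted p = 1.28e-10), and Ly6a, a surface antigen induced by interferon, read 147, 154 and 156 CPM in Mφ and 23.6, 28.9 and 21.1 CPM in M2 (log2 fold change −2.63, adjusted p = 2.85e-14). Of the list again, Ifitm3, a membrane protein against virus entry, read 4631, 3254 and 3422 CPM in Mφ and 2040, 2587 and 2437 CPM in M2, with replicate 1 at the far end in both groups (log2 fold change −0.68, adjusted p = 2.17e-05). With the batch 2 libraries added, Ifit3, Ifi213, Ly6a and Ifitm3 did not pass (adjusted p = 0.0949, 0.247, 0.21 and 0.303).

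Start regions of the listed genes, whether or not they fell, were searched on both strands for GAAA, 2 free bases and GAAA again, letters at the core of the response element of interferon-stimulated genes. Of the 46 listed genes 37 had a window, and Mx1, Mx2, Oas2, Usp18, Ifi204, Rtp4, Zbp1 and Dhx58 were among those that did not. The letters were in 23 of the 37 (62.2%), against 3.44% of all windows, 4.04% of the tested genes with a window and 0 of 26 alternative activation genes. Bst2 and Ifi205, which did not pass as lower, hold the letters as well. TTC and GAA at 4 bases were in 9 of the 37 (24.3%), and matches of the 2 searches share bases in 18 of all windows (0.0548%), none of them printed here. The windows of Ifit3 (chr19:34583279-34583578, + strand), Rsad2 (chr12:26456403-26456702, − strand) and Ifi213 (chr1:173599223-173599522, − strand) carry the match in capitals, and Ifit3 holds 2.
Ifit3: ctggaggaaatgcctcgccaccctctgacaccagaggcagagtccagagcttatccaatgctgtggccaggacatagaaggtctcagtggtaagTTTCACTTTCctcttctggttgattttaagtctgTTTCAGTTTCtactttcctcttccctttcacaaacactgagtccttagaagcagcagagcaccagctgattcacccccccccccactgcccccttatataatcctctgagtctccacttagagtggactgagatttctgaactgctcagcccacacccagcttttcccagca
Rsad2: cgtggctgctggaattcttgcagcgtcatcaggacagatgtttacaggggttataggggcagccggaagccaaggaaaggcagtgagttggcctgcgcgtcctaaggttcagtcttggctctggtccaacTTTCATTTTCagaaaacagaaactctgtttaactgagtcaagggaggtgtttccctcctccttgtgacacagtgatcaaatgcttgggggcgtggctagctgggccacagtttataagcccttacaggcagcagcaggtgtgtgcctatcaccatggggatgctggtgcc
Ifi213: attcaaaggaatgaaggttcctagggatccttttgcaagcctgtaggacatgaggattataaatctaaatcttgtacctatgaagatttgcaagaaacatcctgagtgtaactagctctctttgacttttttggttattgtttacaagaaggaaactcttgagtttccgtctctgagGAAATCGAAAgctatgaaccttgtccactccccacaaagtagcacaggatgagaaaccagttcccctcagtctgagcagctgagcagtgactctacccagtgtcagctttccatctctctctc

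Genes of DNA replication and mitosis fell in the same comparison, with 29 of 33 tested lower (2 with the batch 2 libraries added) and 0 higher, at a median of −0.76. Birc5, which encodes survivin, read 269, 207 and 218 CPM in Mφ and 92.4, 115 and 102 CPM in M2, and Tk1, for thymidine kinase, read 137, 126 and 115 CPM in Mφ and 51.8, 55.9 and 64.4 CPM in M2. All M2 libraries were lower (−1.16 and −1.14 in log2, adjusted p = 3.83e-09 and 3.13e-09). Top2a, for topoisomerase IIα and the most abundant, read 652, 396 and 396 CPM in Mφ and 318, 196 and 189 CPM in M2, with replicate 1 the highest in both groups (log2 fold change −1.04, adjusted p = 0.00897). It missed the threshold without replicate 1 of Mφ or without replicate 3 of M2, and passed without the libraries numbered 1 (−0.97, adjusted p = 1.72e-10). All 3 genes missed it with the batch 2 libraries added, where the log2 fold changes of Birc5, Tk1 and Top2a were −1.144, −1.117 and −1.027. Mki67, Aurkb, Mcm4 and Pcna were the 4 that did not pass, at −0.92, −0.59, −0.35 and −0.13.

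**Figure D3:**
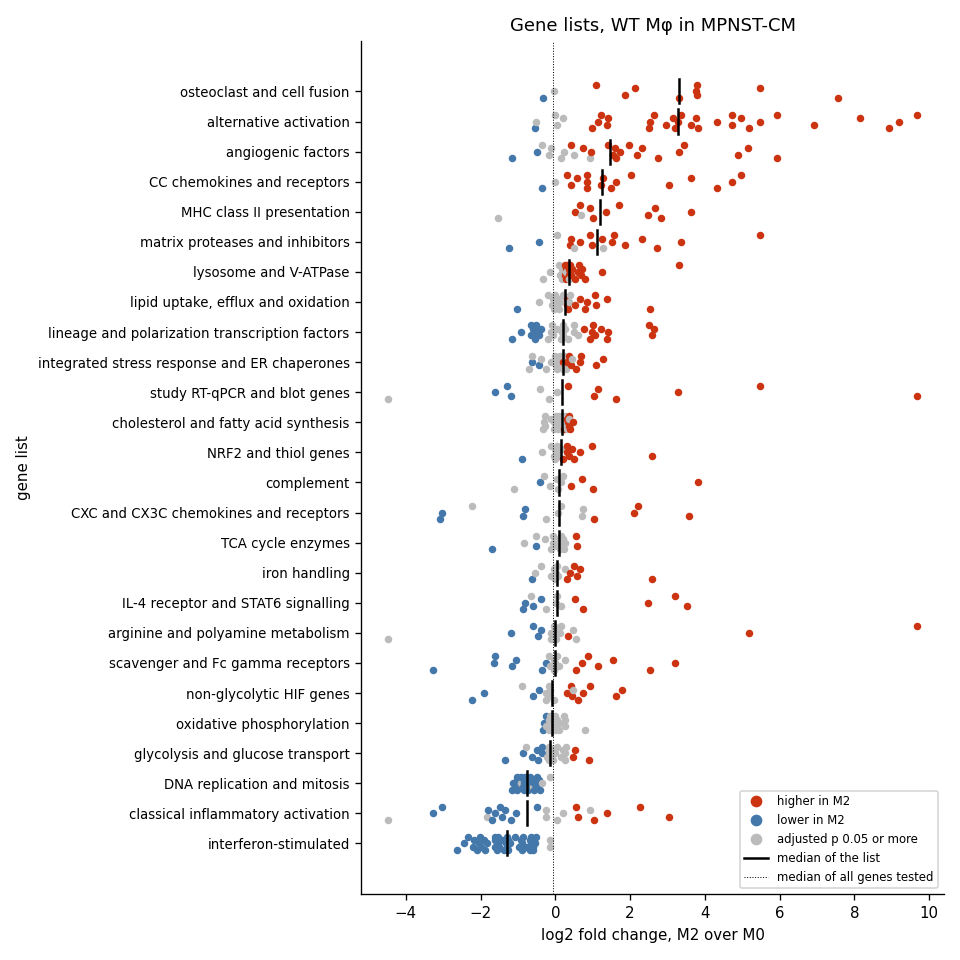
Each point is a tested member of a gene list, placed by its log2 fold change of M2 over Mφ, red or blue where it passed at an adjusted p under 0.05 and gray where it did not. Black bars are list medians, from 3.31 for osteoclast and fusion genes to −1.28 for interferon-stimulated genes, and the dotted line is the median of all genes tested, −0.05.

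Metabolic lists moved little as wholes. Of 26 genes of glycolysis and glucose transport 3 were higher, a share of 11.5% beside 11.9% over all genes (1 in the fit of the 6 libraries alone, 1 with the batch 2 libraries added, 1 without replicate 1 of Mφ and 5 without a filter on low counts) and 7 lower, 26.9% beside 13% (4 with the batch 2 libraries added), with a median of −0.14. Slc2a1, the glucose transporter GLUT1, read 49.3, 67.4 and 55.5 CPM in Mφ and 99.7, 110.3 and 111 CPM in M2, without overlap (log2 fold change 0.90, adjusted p = 2.47e-07). Its relative Slc2a3, for GLUT3, read 14.4, 15.2 and 11.1 CPM in Mφ and 6.16, 8.05 and 8.18 CPM in M2 and fell (log2 fold change −0.86, adjusted p = 0.000462). Pkm, for pyruvate kinase, fell from 1491, 1104 and 1215 to 844, 983 and 911 CPM (log2 fold change −0.48, adjusted p = 0.000124). The oxidative phosphorylation list, which holds nuclear genes only, had 0 of 26 higher and 3 lower, 11.5% beside 13% (0 in the fit of the 6 libraries alone and 0 with the batch 2 libraries added), with a median of −0.08. Of those 3, Atp5o, Cox7a2 and Cox4i1, none passed without the libraries numbered 1, without replicate 1 of Mφ or without replicate 1 of M2. Cox4i1 also missed the threshold without replicate 3 of Mφ, without replicate 2 or 3 of M2, with median-of-ratios scaling and with DESeq2. Only 1 of them passed without a filter on low counts, and 1 member was higher there, with median-of-ratios scaling, with DESeq2, in the fit blocked by replicate number, without replicate 2 of Mφ and without the libraries numbered 1. Outside the list, the mitochondrially encoded genes ND4, CYTB and ND1 were higher in M2 (0.65, 0.55 and 0.54 in log2, adjusted p = 0.000289, 4.04e-05 and 0.00017). They were named for their large gains in CPM, after the values were seen. The share of all mitochondrially encoded mRNA is given further up.

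Of 19 enzymes of the TCA cycle 2 were higher (4 without the libraries numbered 1 and 0 with the batch 2 libraries added) and 2 lower, with a median of 0.09, and both shares, at 10.5%, were under those over all genes. The count in the fit blocked by replicate number was 4 higher. As single genes, Aco1 and Idh1, of the cytosol, were higher (0.58 and 0.55, both not past the threshold with the batch 2 libraries added), while Acod1 and the mitochondrial Idh2 were lower (−1.69 and −0.51). Among 20 HIF target or regulator genes outside glycolysis, 8 were higher (5 in the fit of the 6 libraries alone, 5 without replicate 1 of Mφ and 0 with the batch 2 libraries added) and 4 lower (1 with the batch 2 libraries added), with a median of −0.08. Hif1a itself read 69.5, 78.8 and 71.5 CPM in Mφ and 60.6, 66.3 and 69.4 CPM in M2 and did not pass (log2 fold change −0.16, adjusted p = 0.177). Hilpda, a lipid droplet protein gene, read 33.9, 33.2 and 27.4 CPM in Mφ and 88.4, 117 and 122 CPM in M2, and Ndrg1, a stress-responsive gene, read 54.0, 52.4 and 57.0 CPM in Mφ and 13.1, 15.6 and 15.2 CPM in M2. They went in opposite directions without overlap (1.79 and −1.89 in log2, adjusted p = 8.82e-12 and 3.24e-13), and Hilpda did not pass with the batch 2 libraries added.

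Lipid genes rose in part. Of 26 genes of lipid uptake, efflux and oxidation 11 were higher (6 in the fit of the 6 libraries alone and 2 with the batch 2 libraries added) and 1 lower, with a median of 0.25. Gpnmb, a glycoprotein of lipid-laden macrophages, read 8198, 9054 and 9214 CPM in Mφ and 18000, 19090 and 19130 CPM in M2 (log2 fold change 1.09, adjusted p = 1.02e-10). Apoe, for the lipoprotein that carries cholesterol out, was the lower one, at 484, 358 and 391 CPM in Mφ and 168, 224 and 214 CPM in M2 (log2 fold change −1.02, adjusted p = 2.25e-08). Of 32 genes of cholesterol and fatty acid synthesis 7 were higher (3 in the fit of the 6 libraries alone and 0 with the batch 2 libraries added) and 0 lower, with a median of 0.17. A single lower gene of that list appeared without replicate 2 of Mφ and in the fit blocked by replicate number.

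Among 19 NRF2 and thiol genes 9 were higher (3 in the fit of the 6 libraries alone and 3 with the batch 2 libraries added) and 1 lower, with a median of 0.16. The higher count was 5 without replicate 2 or 3 of Mφ or without replicate 2 of M2. Slc7a11, the cystine transporter, read 9.96, 10.6 and 10.0 CPM in Mφ and 53.3, 62.8 and 67.7 CPM in M2, and the groups were wide apart (log2 fold change 2.59, adjusted p = 1.05e-14). Hmox1, for heme oxygenase 1, read 97.3, 152 and 129 CPM in Mφ and 202, 194 and 206 CPM in M2 (log2 fold change 0.67, adjusted p = 0.00163), and Keap1, the NRF2 inhibitor, read 201, 118 and 131 CPM in Mφ and 104, 64.8 and 72.0 CPM in M2, with replicate 1 the highest in each group (log2 fold change −0.90, adjusted p = 0.00203). Of 16 iron genes 6 were higher (1 with the batch 2 libraries added) and 1 lower (2 without replicate 2 of Mφ), with a median of 0.05. Tfrc, the transferrin receptor, read 72.2, 81.2 and 70.4 CPM in Mφ and 401, 462 and 477 CPM in M2 (log2 fold change 2.58, adjusted p = 3.2e-18) and was not past the threshold with the batch 2 libraries added (adjusted p = 0.121), while the iron exporter gene Slc40a1 fell from 45.9, 58.3 and 51.4 to 31.2, 39.03 and 31.3 CPM (log2 fold change −0.62, adjusted p = 0.000183).

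Of 30 genes of the integrated stress response and the ER chaperones 9 were higher (4 in the fit of the 6 libraries alone, 0 with the batch 2 libraries added and 14 without a filter on low counts) and 2 lower (1 in the fit of the 6 libraries alone and 0 with the batch 2 libraries added), with a median of 0.19. The lower count was 1 without the libraries numbered 1 and without any 1 of replicates 1 and 3 of either group. Atf5 and Atf3, stress-induced transcription factors, read 25.8, 25.6 and 26.2 CPM in Mφ and 58.6, 69.5 and 61.1 CPM in M2, and 99.1, 94.7 and 92.6 CPM in Mφ and 230.2, 185 and 188 CPM in M2. Both were without overlap (1.29 and 1.08 in log2, adjusted p = 2.74e-09 and 2.91e-11), and neither passed with the batch 2 libraries added.

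The complement list had 4 of 12 genes higher (7 without the libraries numbered 1) and 1 lower, with a median of 0.11. Besides Itgax, the integrin chain gene Itgam read 462, 678 and 639.6 CPM in Mφ and 1142, 1195 and 1264 CPM in M2 (log2 fold change 1.02, adjusted p = 2.22e-06), with replicate 1 of Mφ the lowest, and C3 read 36.8, 37.7 and 36.7 CPM in Mφ and 58.7, 59.3 and 63.7 CPM in M2 (log2 fold change 0.71, adjusted p = 1.17e-06). The anaphylatoxin receptor gene C5ar1 fell from 634, 678 and 706 to 477, 528 and 500.5 CPM (log2 fold change −0.42, adjusted p = 0.000919), and did not pass with the batch 2 libraries added. Scavenger and Fc gamma receptors split, 7 of 22 higher and 7 lower (1 with the batch 2 libraries added), with a median of −0.02. The inhibitory receptor gene Fcgr2b read 45.4, 65.2 and 62.6 CPM in Mφ and 156, 176 and 174 CPM in M2 and rose (log2 fold change 1.55, adjusted p = 2.78e-08). Cd5l and Stab1, of scavenging macrophages, read 109, 96.9 and 90.6 CPM in Mφ and 27.4, 35.9 and 30.9 CPM in M2, and 59.4, 40.8 and 51.6 CPM in Mφ and 16.6, 26.4 and 25.0 CPM in M2. Both fell (−1.65 and −1.16 in log2, adjusted p = 7.39e-12 and 3.23e-06), Cd5l not past the threshold with the batch 2 libraries added.

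Of 15 genes that the study assayed by RT-qPCR or blot, 14 were tested, and 7 were higher (4 with the batch 2 libraries added) and 3 lower, with a median of 0.18. The higher ones included Mrc1, Vegfa, Clec10a, Mmp9 and Il1b, and the lower ones were Tnf, Fcgr1 and Aif1. Aif1, for the actin-binding protein IBA1, fell from 82.4, 71.7 and 78.7 to 30.04, 34.6 and 29.9 CPM (log2 fold change −1.30, adjusted p = 9.62e-11).

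Some of the largest rises belonged to no list. Msx3, a homeobox gene, had 2 counts over the 3 Mφ libraries and 59.7, 76.7 and 69.1 CPM in M2, a ratio of 912 (counting interval 252 to 7535). Cldn11, a tight junction gene, read 0.116, 0.461 and 0 CPM in Mφ and 55.8, 58.2 and 62.8 CPM in M2, and Scn3a, a sodium channel gene, read 0.116, 0.576 and 0.108 CPM in Mφ and 69.4, 52.7 and 49.6 CPM in M2. All 3 were at or near 0 in Mφ and between 49.6 and 76.7 CPM in M2 (8.17 and 7.68 in log2 for Cldn11 and Scn3a, adjusted p = 2.07e-14 and 7.67e-16). On the lower side, Gpr84, a receptor for medium-chain fatty acids, read 11.7, 10.6 and 15.4 CPM in Mφ and 2.77, 2.07 and 2.01 CPM in M2, the DNA-binding factor gene Tox2 read 39.02, 21.4 and 22.5 CPM in Mφ and 6.79, 4.76 and 5.66 CPM in M2, and the anion transporter gene Slco2b1 read 14.8, 14.4 and 11.9 CPM in Mφ and 2.64, 2.20 and 3.90 CPM in M2. No M2 library reached the Mφ range (−2.45, −2.27 and −2.23 in log2, adjusted p = 1.99e-08, 1.62e-07 and 9.24e-10), and replicate 1 of Mφ was the highest in Tox2.

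The IL-4 difference was next set against that of WT cells in control medium. There 5065 genes passed (37.2%), 2595 higher (19.1%) and 2470 lower (18.1%) in M2. The difference between the 2 differences passed for 1653 genes (12.1%), with 712 higher in MPNST-CM (5.23%) and 941 lower (6.91%), counted by the sign of the difference, and for 192 genes with the batch 2 libraries added, 1 of which is Mφ in control medium. This test shares the 6 libraries with the comparison described so far, so no overlap between them is counted. Its larger side changed between fits, with 894 higher and 795 lower without the libraries numbered 1. Lower genes were also the smaller side without a filter (626 of 1494) and in the fit of the groups compared (554 of 1293).

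The 33 alternative activation genes had a median difference between media of −0.62, against 0.00 over all genes. Of them 10 had a lower difference in MPNST-CM (1 with the batch 2 libraries added and 6 to 11 with 1 library left out). A higher difference passed for 3 of them. Mrc1 was one of the 3: it read 714, 748 and 737 CPM in Mφ and 757, 752 and 750.4 CPM in M2 of control medium, where M2 were only just above Mφ and the gene did not pass (0.04 in log2, adjusted p = 0.708), and stood far higher in all M2 libraries in MPNST-CM (1.11 in log2, adjusted p = 3.77e-08, or 0.271 with the batch 2 libraries added). Clec10a read 39.1, 51.1 and 45.8 CPM and 80.4, 80.4 and 69.3 CPM in control medium, where Mφ were higher and M2 lower than in MPNST-CM (2.52, adjusted p = 3.89e-10). The lower differences included Retnla (−2.51, adjusted p = 0.0126), Cdh1 (−2.60, adjusted p = 0.000701) and Batf3 (−2.55, adjusted p = 8.97e-05). Cdh1 passed with the batch 2 libraries added, Retnla and Batf3 did not. Retnla missed the threshold without replicate 1 or 2 of Mφ in MPNST-CM, and without the libraries numbered 1 its value was −2.15 (adjusted p = 0.0568).

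Among genes with a mean of 10 CPM in a group, the difference between media was most positive in Gm30605, an uncharacterized gene (3.56), the gap junction gene Gja1 (3.45), Pmepa1 (3.24), Ms4a6b (2.89), Ctla2a (2.75) and Ppbp (2.71), with adjusted p from 1.71e-15 for Ms4a6b to 0.000132 for Pmepa1. Ms4a6b and Ctla2a were lower in M2 in MPNST-CM (−0.30 and −0.66), and far lower in control medium (−3.19 and −3.41). Gja1 rose in MPNST-CM (0.82) and fell in control medium (−2.64). Pmepa1, a gene induced by TGF-β, read 1.04, 1.04 and 1.51 CPM in Mφ and 62.0, 37.3 and 39.5 CPM in M2 in MPNST-CM, and 2.58, 0.651 and 1.37 CPM and 6.61, 6.22 and 5.90 CPM in control medium. Outside the list above, Hebp2 (−2.34) and the coactivator gene Ppargc1b (−2.32) lay at the other end (adjusted p = 9.18e-06 and 2.7e-07). Of these 8, Pmepa1 alone passed with the batch 2 libraries added. Nuclear oxidative phosphorylation genes differed more between media than within MPNST-CM: 20 of 26 had a lower difference in MPNST-CM (2 with the batch 2 libraries added) and 0 a higher one, with a median of −0.49. In control medium 23 of 26 were higher in M2.

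**Figure D4:**
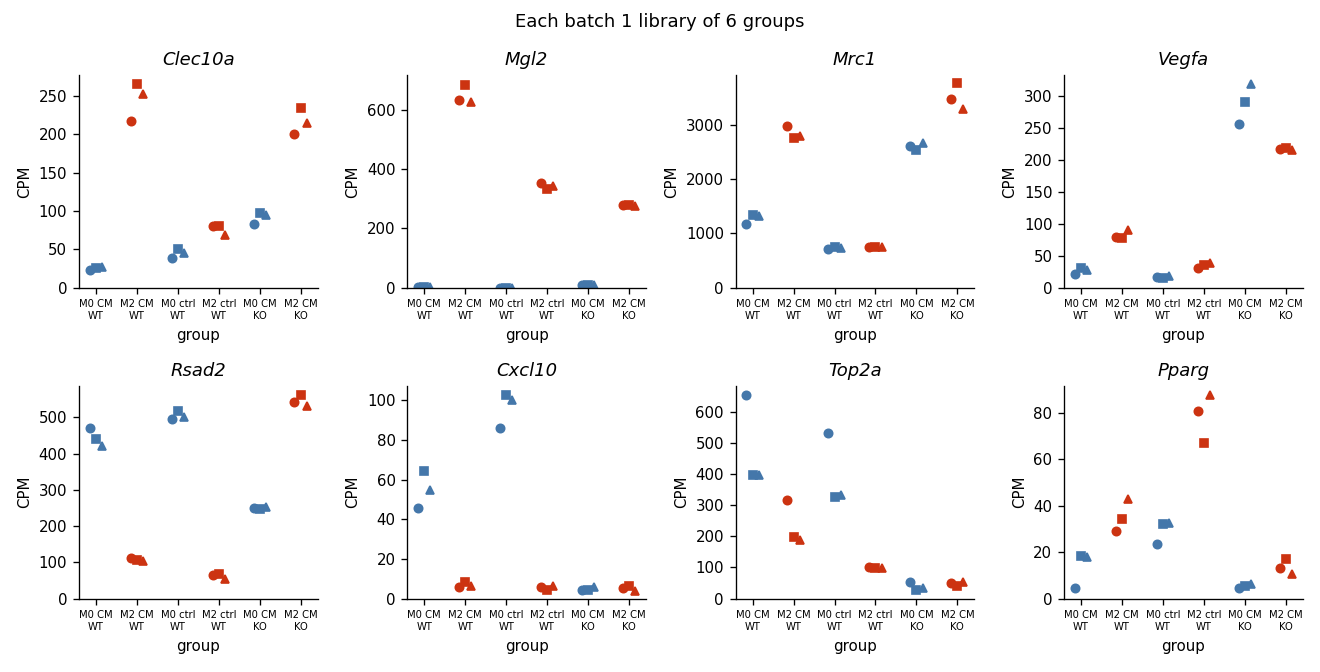
The CPM of 8 genes are drawn for each batch 1 library of 6 groups (Mφ blue, M2 red, shapes for the 3 libraries of a group in order of their number; M2 in control medium are numbered 2 to 4). Mrc1 is nearly level between Mφ and M2 in control medium and apart in MPNST-CM, and Rsad2 is lower in WT M2 and higher in TRAP1 KO M2.

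In TRAP1 KO cells in MPNST-CM the IL-4 difference covered 1522 genes (11.2%), 913 higher (6.71%) and 609 lower (4.47%). With 1 library left out the lower count ran from 379 to 551. With the batch 2 libraries added 329 genes were higher and 146 lower. The test of WT against KO differences passed for 978 genes (7.18%), 425 higher in WT (3.12%) and 553 lower (4.06%). It gave 1605 genes without the libraries numbered 1 and 130 with the batch 2 libraries added, 1 of which is KO M2 in MPNST-CM. In the fit of the groups compared 721 passed, and lower genes were the smaller side at 345. Xist, the transcript of the inactive X chromosome, read 408, 297 and 306 and 504, 254 and 288 CPM in the 6 WT libraries, and 0.374, 0.730 and 0.127 and 0.265, 0.339 and 1.14 CPM in the 6 KO libraries, so the genotype and whatever else goes with Xist cannot be told apart.

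Of 33 alternative activation genes, 15 had a higher difference in WT (4 with the batch 2 libraries added) and 0 a lower one, with a median of 0.98 beside −0.03 over all genes. Mgl2 in KO read 10.99, 10.6 and 9.43 CPM in Mφ and 280.1, 278 and 276 CPM in M2, a rise that stayed under that of WT (4.18, adjusted p = 5.31e-11). Vegfa was above the WT range in every KO library, at 256, 289.8 and 317 CPM in Mφ and 217, 218 and 216 CPM in M2, and there M2 were the lower ones (2.04, adjusted p = 5.18e-10). Ccl24 (3.10), Tuba8, a tubulin gene (3.69), Gm30605 (4.35) and Ocstamp (3.47) were other large ones (adjusted p = 0.0019, 7.61e-06, 0.000312 and 0.0306). Ocstamp missed the threshold without replicate 2 or 3 of Mφ of either genotype, in the fit blocked by replicate number and in the fit of the groups compared, and Ccl24 without replicate 3 of KO Mφ. With the batch 2 libraries added Mgl2 and Tuba8 passed, and Vegfa, Ccl24, Gm30605 and Ocstamp did not, the last 3 at 0.32, 2.78 and 1.41.

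The interferon-stimulated genes differed between genotypes: 41 of 45 had a lower difference in WT (1 with the batch 2 libraries added) and 0 a higher one, with a median of −1.53. In KO cells 17 of the 45 were higher in M2 and 1 lower (0 and 0 with the batch 2 libraries added). Rsad2 in KO read 251, 246 and 253 CPM in Mφ and 542, 562 and 532 CPM in M2, so it rose where the WT libraries fell (−3.17, adjusted p = 5.47e-16). Cmpk2, Ifit3, Ifit3b, Ifit2 and Cxcl10 followed at −3.21, −3.21, −3.17, −3.14 and −3.13 (adjusted p at most 1.05e-08, that of Cxcl10). Of these 6, Cxcl10 alone passed with the batch 2 libraries added. The list's difference in control medium was larger than in MPNST-CM, with 43 of 45 lower in M2 there at a median of −2.25. In the test between media 27 were higher (0 with the batch 2 libraries added) and 1 lower.

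The cell cycle list had the same order, with 29 of 33 genes more negative in WT than in KO (5 with the batch 2 libraries added) and 0 less so, at a median of −1.26. In M2 of KO 17 were higher (2 with the batch 2 libraries added and 11 to 15 with 1 library left out). Top2a in KO read 51.8, 28.6 and 33.1 CPM in Mφ and 49.5, 39.7 and 54.5 CPM in M2, all of them under the WT libraries of MPNST-CM.

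**Figure D5:**
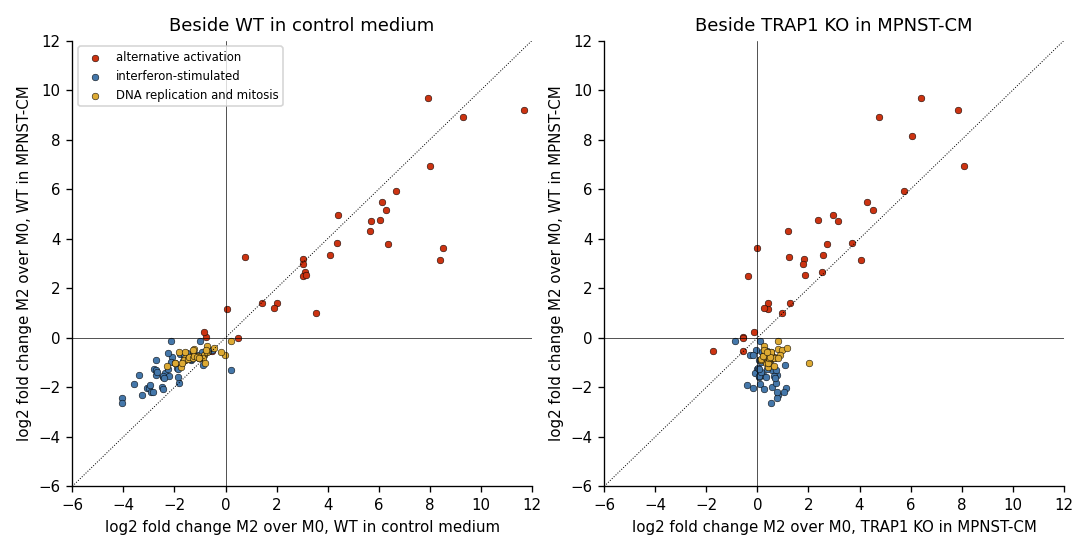
The log2 fold change of M2 over Mφ in WT in MPNST-CM is on the vertical axis and that of WT in control medium (left) or TRAP1 KO in MPNST-CM (right) on the horizontal axis, each point a tested gene of 3 lists and the dotted line equality. Nearly all interferon-stimulated and cell cycle genes lie in the lower left against control medium, with medians of −2.25 and −1.23 there, and around 0 or to its right against KO, with medians of 0.34 and 0.48.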

How the data were processed

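Per the labels, the authors sequenced 3′ end libraries (75-base single reads), trimmed them with Trimmomatic, checked them with FastQC, aligned them with HISAT2, removed alignments of mapping quality under 20 with SAMtools, and counted reads per gene with featureCounts. The authors deposited these counts, not normalized, for 50559 genes in 32 columns. The labels name mm39 as the genome and the paper mm10. No tool version is given, nor the strand setting of the counting. Of the columns, 27 match a described library and 5 were not used. The 24 libraries of batch 1 hold 7037684 to 9089792 counts each, and a gene with no count in the 6 libraries compared lies under 3 counts per library, 0.324 to 0.377 CPM, in counting error.

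CPM were computed as counts over the TMM-scaled library size. Genes kept by filterByExpr were fitted by group in edgeR 4.0.16 (R 4.3.3) with robust quasi-likelihood, and p-values were adjusted by Benjamini-Hochberg. Tests were M2 against Mφ in WT in MPNST-CM, the same in WT control medium and in TRAP1 KO in MPNST-CM, and the difference between those differences. Scripts were tested on simulated data with fixed seeds. Alternatives were median-of-ratios scaling, DESeq2 1.42.0, no filter, all 27 libraries (without a term for batch), only the groups compared, a replicate block, a limit of 1 on the size of the log2 fold change, and each library left out. Fits without the libraries numbered 1, and a block in the 6 libraries alone, were added after seeing the data.

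Deviations of libraries with the same number correlated at 0.381, 0.183 and 0.157. Crosswise correlations ran from −0.296 to 0.212, and the highest, of replicate 2 of Mφ with replicate 3 of M2, was over 0.183 and 0.157. Whether the numbers pair the samples is thus not shown for replicates 2 and 3. The fit described here models no pairing, and the replicate block takes pairing by number as an assumption.

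Named genes are the 12 with the largest difference in each direction and the 6 in each direction for each test of a difference, at a mean of 10 CPM in a group, all members of the alternative activation and RT-qPCR lists, and in each of 24 other lists up to 3 members in each direction with the most abundant one. Some genes are not reported here. Members and lists were chosen with earlier results of these data known. A group with 1 to 3 counts is given as a ratio with a 95% counting interval, and one with 0 counts as a bound against 3 counts.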

Additional observations from a re-analysis of the deposited data

Results flagged for a closer look

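These results were flagged because the IL-4 difference itself differs between groups, by media in WT cells or by genotype in MPNST-CM. They share the 6 libraries of the report, and the cause of no difference was tested. The media test passed for 1653 genes (712 higher in MPNST-CM and 941 lower) and the genotype test for 978 (425 higher in WT and 553 lower). Without the libraries numbered 1 the media split was 894 higher and 795 lower. Lower genes were the smaller side in the fits of the groups compared, 554 of 1293 for media and 345 of 721 for genotype.

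Between media, the log2 fold change of M2 over Mφ differed by 3.56 for Gm30605, 3.45 for Gja1, 3.24 for Pmepa1, 2.89 for Ms4a6b, 2.75 for Ctla2a, 2.71 for Ppbp, −2.60 for Cdh1, −2.55 for Batf3, −2.51 for Retnla, −2.34 for Hebp2 and −2.32 for Ppargc1b. Among alternative activation genes it differed by 1.11 for Mrc1, 2.52 for Clec10a, −0.62 for Klf4, −0.49 for Tgm2, −0.63 for Cd36, −0.56 for Itgax, −0.75 for Mmp12 and 1.06 for Kctd12b. Among the genes the study assayed it differed by 0.55 for Vegfa, −0.84 for Tnf, 0.94 for Mmp9, 1.28 for Fcgr1, 0.70 for Glul, 0.49 for Aif1 and −0.88 for Trap1. Rnase2a, Ccl17 and Nos2 also passed but hold 3 counts or fewer in a group, so their differences are not given.

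Of the media values given, those of Pmepa1, Cdh1, Clec10a, Kctd12b and Glul alone passed with the batch 2 libraries added, and Aif1 stood at 0.29 there. That fit puts 1 batch 2 library into WT Mφ in control medium with no term for batch, so its values mix batch with medium. Vegfa also missed the threshold in the fit of the groups compared and in 5 fits with 1 library left out, and Trap1 without a filter, without the libraries numbered 1 and in 9 fits with 1 library left out. Tgm2 did so without a filter, in the fit of the groups compared, without the libraries numbered 1 and in 5 fits with 1 library left out, Aif1 with the replicate block and in 3 such fits, Retnla without the libraries numbered 1 and in 2, and Klf4 in the fit of the groups compared.

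Between genotypes, WT minus KO, it differed by 4.35 for Gm30605, 4.18 for Mgl2, 3.69 for Tuba8, 3.47 for Ocstamp and 3.10 for Ccl24, and by −3.21 for Cmpk2, −3.21 for Ifit3, −3.17 for Ifit3b, −3.17 for Rsad2, −3.14 for Ifit2 and −3.13 for Cxcl10. Further values were 0.72 for Mrc1, 2.04 for Clec10a, 2.38 for Ccl22, 1.35 for Clec7a, 2.86 for Irf4, 0.98 for Klf4, 0.54 for Tgm2, 1.19 for Matk, 0.67 for Cd36, 1.98 for Ccl8, 1.19 for Fcrls and 0.76 for Mmp12, and for assayed genes 2.04 for Vegfa, −0.64 for Tnf, 1.49 for Mmp9, −1.63 for Fcgr1 and 1.32 for Il1b.

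Of the genotype values, those of Mgl2, Tuba8, Cxcl10, Clec10a and Klf4 alone passed with the batch 2 libraries added, where Clec7a stood at −0.04 (adjusted p = 0.996), Matk at 0.01, Mmp12 at 0.09, Ccl24 at 0.32, Irf4 at 0.89, Ocstamp at 1.41, Gm30605 at 2.78 and Tgm2 at 0.83. That fit puts 1 batch 2 library into KO M2 in MPNST-CM with no term for batch, so its values mix batch with genotype. Tnf also missed the threshold with median-of-ratios scaling (adjusted p = 0.0532), with DESeq2 (0.0502), without a filter, in the fit of the groups compared and in 9 fits with 1 library left out. Ccl22 did so with the replicate block, without the libraries numbered 1 and in 6 fits with 1 library left out, Ocstamp with the block, in the fit of the groups compared and in 4, Matk in the fit of the groups compared and in 2, and Ccl24 in 1.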

How the results depend on the processing

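Of the 161 named log2 fold changes of M2 over Mφ, 158 kept their side of the threshold and their direction with median-of-ratios scaling, 157 with DESeq2, 150 without a filter and 97 with all 27 libraries. With all 27 libraries the calls of Vegfa, Rsad2 and Tfrc ended at 1.644, −2.032 and 2.6 in log2. These values lie close to those given above. Among the batch 2 libraries, KO M2 in control medium held 0.987% mitochondrially encoded mRNA, against 5.15% to 5.99% in its batch 1 group. The total of 3392 genes was 3292 with median-of-ratios scaling, 3218 with DESeq2, 3167 without a filter, 1204 with all 27 libraries, 1941 in the fit of the groups compared and 924 with the limit on size. With 1 library left out it ranged from 2730 to 3254, and without those numbered 1 it was 3328. The limit on size is stricter by construction, and the cause of the other changes was not tested.

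The media total of 1653 was 192 with all 27 libraries and 452 with the limit on size, and 1242 to 1646 with 1 library left out. Without the libraries numbered 1 it was 1689, of which 1195 were shared. The genotype total of 978 was 130, 430 and 798 to 1055 in the same order, and 1605 without the libraries numbered 1. In control medium 5065 genes became 1934 with the limit on size and 4372 to 4625 with 1 library left out. In KO 1522 genes became 475 with all 27 libraries, 448 with the limit on size and 1075 to 1259 with 1 library left out. The cause of these changes was not tested.

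Tgm2 reversed, from −0.01 to 0.2355 (adjusted p = 0.0428) without the libraries numbered 1, and Clec7a between genotypes from 1.35 to −0.03995 (adjusted p = 0.996) with all 27 libraries, and the cause was not tested. The 27-library value of Clec7a includes 1 batch 2 library of KO M2 in MPNST-CM with no term for batch, so it mixes batch with genotype. With the replicate block, which assumes a pairing by number, 3896 genes passed in the 24 libraries. Besides the calls named in the report it ended those of Hk3 (0.53, adjusted p = 0.0559), of Aif1 and Ccl17 between media (adjusted p = 0.0512 and 0.0729) and of Ccl22 between genotypes (2.39, adjusted p = 0.052), made that of Aif1 between genotypes (−0.41, adjusted p = 0.0444), and changed no other call of the 161 genes. In that fit replicate 4 of M2 in control medium is alone in its block, so the blocked media test does not use it. With the block in the 6 libraries alone 2664 genes passed, and the calls of 12 named genes ended: Atp5o, Bnip3, Ccr2, Cox4i1, Cox7a2, Hspa5, Mmp27, Ms4a6b, Nfatc1, Prdx1, Shmt2 and Slc16a1.

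These are bulk 3′ counts from 3 libraries per group, so cell states within a library were not seen. Counts of 7783061 to 8452051 in each of the 6 libraries leave genes of a few counts with wide intervals. IL-4 and the 24 h step that came with it cannot be told apart, and protein was not measured here. Promoter windows are on GRCm38.p6, and the labels and the paper name different builds for the counts.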

Other observations

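The genes named here belong to no list of the report and were chosen after their values were seen. Lrrc32, which anchors latent TGF-β, read 2.20, 1.96 and 2.26 CPM in Mφ and 55.3, 62.0 and 55.7 CPM in M2 (log2 fold change 4.74, adjusted p = 3.42e-18), and fibronectin, from Fn1, read 1.39, 1.15 and 1.51 CPM in Mφ and 19.9, 19.4 and 21.01 CPM in M2 (log2 fold change 3.88, adjusted p = 2.03e-09). The receptor gene of IL-33, Il1rl1, read 2.55, 4.50 and 2.91 CPM in Mφ and 40.9, 36.8 and 36.1 CPM in M2, and that of the IL-36 family, Il1rl2, read 0.926, 1.61 and 1.83 CPM in Mφ and 17.7, 15.4 and 21.01 CPM in M2. All M2 libraries were above all Mφ libraries in these 4 (3.51 and 3.61 in log2 for the last 2, adjusted p = 3.48e-13 and 9.51e-11). Car2, a carbonic anhydrase gene of osteoclasts, read 1.04, 0.807 and 0.863 CPM in Mφ and 16.1, 23.1 and 19.5 CPM in M2 (log2 fold change 4.41, adjusted p = 2.68e-12), and Csf2rb, the shared chain of the GM-CSF, IL-3 and IL-5 receptors, read 413, 365 and 350.0 CPM in Mφ and 1120, 1117 and 1098 CPM in M2 (log2 fold change 1.56, adjusted p = 2.45e-14).

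Actb, for β-actin, read 6570, 5442 and 5808 CPM in Mφ and 5199, 3031 and 3004 CPM in M2, with replicate 1 of each group the highest of its group (log2 fold change −0.67, adjusted p = 0.0122). Tuba1b, a tubulin gene, read 1565, 1040 and 1093 CPM in Mφ and 482, 694 and 576 CPM in M2 (log2 fold change −1.08, adjusted p = 4.21e-06), and Tubb5 read 1655, 1076 and 1244 CPM in Mφ and 658, 838 and 711 CPM in M2 (log2 fold change −0.85, adjusted p = 1.65e-05). Vim, for vimentin, read 2917, 3840 and 3680 CPM in Mφ and 4833, 5029 and 4991 CPM in M2 and rose (log2 fold change 0.51, adjusted p = 0.000171). The transcription factor gene Pou2f2 read 133, 141 and 133 CPM in Mφ and 53.05, 39.4 and 40.0 CPM in M2 (log2 fold change −1.62, adjusted p = 3.64e-09), and F13a1, for a subunit of coagulation factor XIII, read 57.3, 65.2 and 65.1 CPM in Mφ and 19.7, 23.5 and 21.3 CPM in M2 (log2 fold change −1.54, adjusted p = 2.07e-10). No M2 library reached the Mφ range in Tuba1b, Tubb5, Pou2f2 or F13a1.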
